A study of Mus musculus with 12 samples.

Results

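The genes of the proteasome other than its immune-specific subunits were examined in conventional dendritic cells (cDCs) of the mouse spleen. They were taken as the protein-coding rows of the deposited expression table whose symbol opens with Psma to Psmg followed by a digit. The immunoproteasome subunits Psmb8, Psmb9 and Psmb10 and the activator genes Psme1 and Psme2 were set aside. This gave 46 genes of 55322 rows in all, of which 21821 were protein-coding. Of the 46, 43 encode subunits, assembly chaperones, activators or an inhibitor of the proteasome, while Psmc3ip, Psme3ip1 and Psme2b match by symbol only.

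The 12 libraries form 4 groups of 3, namely L-cDC1 and M-cDC1, and L-cDC2 and M-cDC2, where the labels do not spell out the letters L and M. The study's title speaks of cDCs of lymphoid origin. A cDC shows antigen to T cells, and cDC1 are known for presenting fragments of engulfed proteins to CD8 T cells. All 4 groups carry the labelled genotype Il7r-cre; Rosa26-lsl-tdTomato, whereas the labels' growth protocol and the design text call the animals wild type C57BL/6J, kept free of specific pathogens and 7 to 8 weeks old. In that reporter, any cell that has expressed Il7r stays fluorescent, lymphocytes included. Neither the use of the reporter in the sort of each library nor the animals behind each replicate are stated, so the spread that p-values rest on is that of these samples and may be technical.

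The proteasome is a barrel that degrades proteins marked with ubiquitin. Its core particle is made of stacked rings. The outer rings consist of alpha subunits (Psma genes), and the inner rings of beta subunits (Psmb genes), of which Psmb5, Psmb6 and Psmb7 carry the standard cutting sites with chymotrypsin-like, caspase-like and trypsin-like activity. A regulatory particle caps the barrel. Its base holds ATPases that unfold the substrate (Psmc genes), and its lid (most Psmd genes) removes ubiquitin from the substrate. In immune cells, Psmb8, Psmb9 and Psmb10 can take the places of Psmb5, Psmb6 and Psmb7, and the peptides that either form releases are loaded onto MHC class I. When proteasome activity is low, the transcription factor Nfe2l1 is freed from the endoplasmic reticulum with the help of Ngly1 and the protease Ddi2, and it raises proteasome genes through antioxidant response elements in their promoters.

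Those elements can be read in the promoters of 2 catalytic genes, which are shown because the cDC1 and cDC2 levels of Psmb5 differ below while those of Psmb6 do not pass the test. Each sequence is RefSeq's on mouse build GRCm38.p6, 5′ to 3′ on the gene's strand, with the searched motif in capitals. The Psmb5 window lies at chr14:54618004-54618072 on the minus strand, with its motif beginning 47 bases before the annotated start, and the Psmb6 window at chr11:70525318-70525356 on the plus strand, with its motif beginning 9 bases before the start.
Psmb5: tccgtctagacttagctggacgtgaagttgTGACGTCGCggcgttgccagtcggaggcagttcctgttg
Psmb6: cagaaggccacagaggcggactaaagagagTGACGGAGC
The core of the element was searched as TGACNNNGC on both strands of the 250 bases before each start. It was found in 5 of 41 promoters of the 38 genes that could be matched (12.2%), against 10.2% of 32851 mouse promoters of the same length. The 5 genes were Psmb5, Psmb6, Psmc6, Psmd9 and Psmd12. The interferon-stimulated response element core, GAAA and GAAA with any 2 bases between them, was found in 3 of the 41 (7.32%, against 2.98% of all promoters). The CCAAT box was found in 15 (36.6%, against 33.8%).

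The motif that stood most above the background was CCGGAAG, a site recognised by Ets family factors, in 14 of the 41 promoters (34.1%, against 6.91% of all promoters). Examples from genes whose levels are compared below are Psma6 (chr12:55398663-55398729, plus strand), Psmc1 (chr12:100110144-100110201, plus strand), Psmd11 (chr11:80428574-80428614, plus strand) and Psmd12 (chr11:107479481-107479527, plus strand). In the last 3 the capitals show the motif on the opposite strand, CTTCCGG. Psma6 has more than a single promoter among the 41. The window shown is from its promoter that begins at chr12:55398575. Another lies upstream of it, beginning at chr12:55383972, and there the Ets site was not found.
Psma6: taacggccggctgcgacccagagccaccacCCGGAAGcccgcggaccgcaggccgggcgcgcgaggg
Psmc1: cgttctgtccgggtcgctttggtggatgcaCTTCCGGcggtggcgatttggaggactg
Psmd11: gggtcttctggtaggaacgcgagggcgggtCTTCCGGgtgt
Psmd12: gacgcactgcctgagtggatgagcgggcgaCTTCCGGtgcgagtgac
The Ets site was found in 1 of the 6 matched genes that were higher in cDC1 in both L and M below. That gene is Psma6, in which the site was found only in the downstream promoter. Of the 32 other matched genes, 12 had it. A match is a description of letters and not evidence of binding. Promoters of Psma8, Psmb1, Psmb2, Psmb7, Psmc3, Psmd3, Psmd7 and Psmg2 were not analysed here.

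Levels are given as FPKM, the authors' reads scaled by gene length and by the library's total. The libraries held 15879864 to 24498235 reads, and 3 reads on a gene of 1 kb were worth 0.122 to 0.189 FPKM. The cDC1 markers Xcr1, Clec9a, Irf8, Batf3, Cd8a and Tlr3 summed to 1250 to 1341 FPKM in L-cDC1 and 1292 to 1308 in M-cDC1, against 65.4 to 76.1 in L-cDC2 and 79.9 to 83.6 in M-cDC2, as the labels say. The 6 cDC2 markers summed to 10.4 to 13.6 FPKM in L-cDC1 and 11.4 to 12.7 in M-cDC1, against 677 to 787 in L-cDC2 and 801 to 927 in M-cDC2. Markers of B cells were present in the L libraries, at 186 to 527 FPKM in L-cDC1 and 377 to 2294 in L-cDC2 for 6 genes, against 8.55 to 15.8 in M-cDC1 and 28.9 to 42.2 in M-cDC2. The sums in L were mostly Igkc, at 137 to 404 FPKM in L-cDC1 and 270 to 1977 in L-cDC2.

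Of the 46 genes, 45 reached 1 FPKM in at least 3 libraries and were tested. Psmb11, the catalytic subunit of the thymus, had 0 FPKM in all 12 libraries. The 46 genes together took 0.644% to 0.662% of the reads in L-cDC1, 0.687% to 0.729% in M-cDC1, 0.555% to 0.589% in L-cDC2 and 0.588% to 0.615% in M-cDC2, and of these ranges only those of L-cDC2 and M-cDC2 overlapped. In bulk samples, fewer cells of a type and less RNA per cell cannot be told apart.

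Psmb2, a structural beta subunit, had the highest level, with 211, 206 and 203 FPKM in L-cDC1 and 219, 238 and 213 in M-cDC1, against 179, 156 and 185 in L-cDC2 and 169, 176 and 175 in M-cDC2. It was followed by Psmb5 and Psmb6, both with a mean of 142 FPKM over the 12 libraries. The lowest tested genes were Psmd9, a chaperone of base assembly (2.2 to 4.88 FPKM), Psme4, an alternative activator (1.95 to 4.89), and Psma8, the alpha subunit of the testis (0.151 to 1.37). Core particle subunits are needed in equal numbers, except that Psmb8, Psmb9 and Psmb10 can take the places of Psmb5, Psmb6 and Psmb7. Psmb10 had a mean of 90.9 FPKM over the 12 libraries, beside 14.7 for Psmb7. The core particle genes without Psma8 spanned a factor of 13.2, with Psmb7 lowest. Dividing by the length of the principal transcript in place of the table's gene length gave a factor of 8.5, again with Psmb7 lowest, and with Psma7 highest in place of Psmb2. Of the 45 tested genes, 24 had their highest mean in M-cDC1, 9 in L-cDC1, 6 in L-cDC2 and 6 in M-cDC2. The lowest mean fell in L-cDC2 for 23, in L-cDC1 for 10, in M-cDC2 for 7 and in M-cDC1 for 5.

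**Figure D1:**
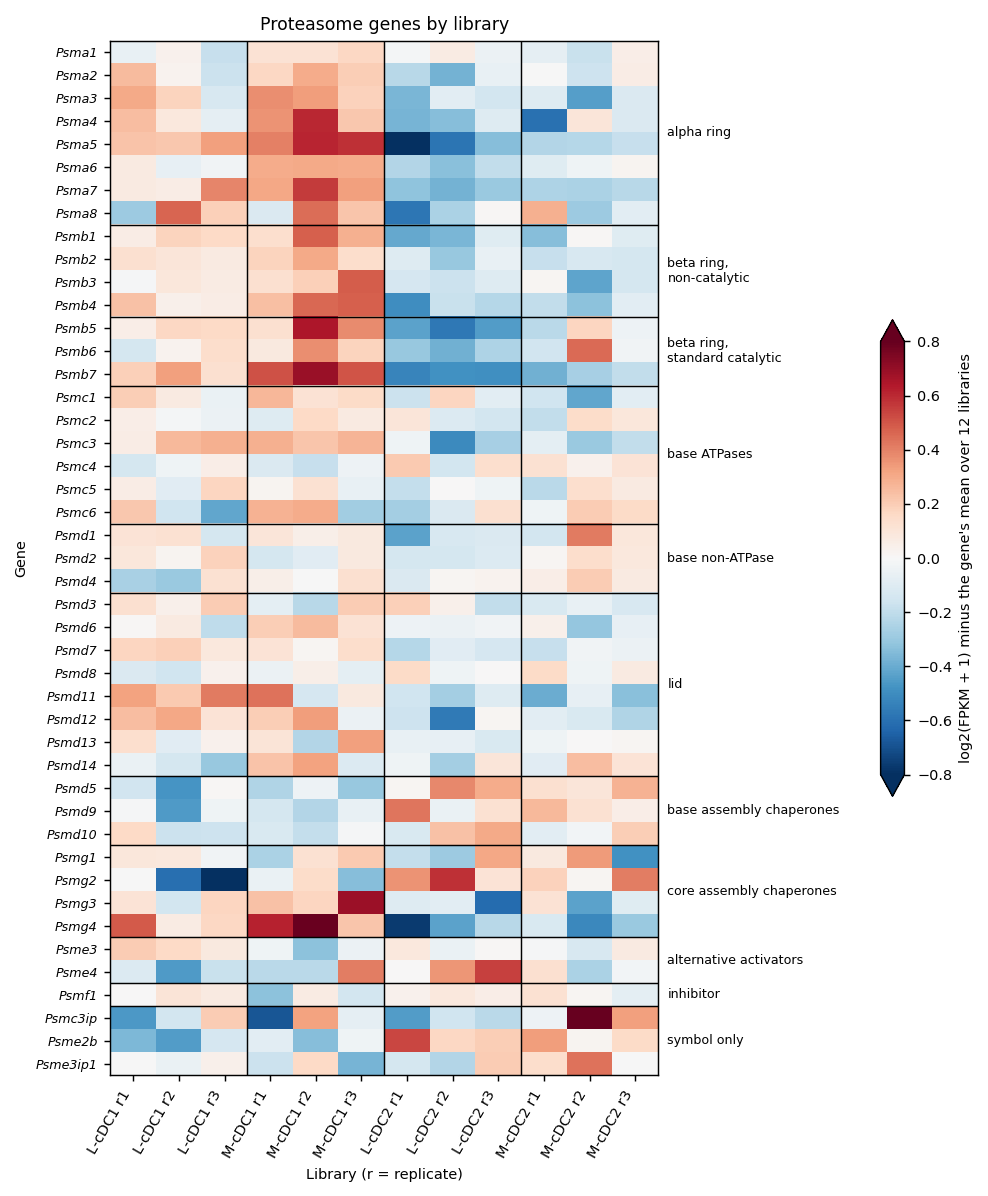
Heat map of the 45 tested genes (rows, grouped by their place in the proteasome) in the 12 libraries (columns), coloured by log2(FPKM + 1) minus the gene's mean over the libraries. The alpha and beta ring genes are red in most M-cDC1 libraries and blue in most L-cDC2 libraries, while the base and lid genes show paler colours.

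Most core particle genes were higher in cDC1 than in cDC2. Of the 15 tested, 8 passed within L and 11 within M, beside 4 and 3 of the 17 genes of the regulatory particle. Between M-cDC1 and M-cDC2, 15 of the 45 genes were higher in M-cDC1 and 0 lower at a Benjamini-Hochberg adjusted p under 0.05 in limma. That is 33.3%, where 12.7% of all 12434 genes tested were higher and 25.4% lower. Between L-cDC1 and L-cDC2, 13 were higher (28.9%, against 12.9% of all genes) and 3 lower (6.67%, against 26.6%). The difference in log2(FPKM + 1) had a median of 0.12 over the members in M and 0.14 in L, beside -0.18 and -0.19 over all genes tested. In both comparisons 10 genes were higher, Psma5, Psma6, Psma7, Psmb1, Psmb2, Psmb4, Psmb5, Psmb7, Psmc3 and Psmg4, and 0 genes were called in opposite directions. The share of all genes called in both was not counted, so this number has no background. These comparisons share no library, but the fit gives the 4 groups a common estimate of each gene's spread. The libraries of 19 members stood apart with M-cDC1 above M-cDC2 (42.2%, against 16.9% of all genes), and those of 17 with L-cDC1 above L-cDC2 (37.8%, against 16.0%). In each of M and L, 4 members stood apart with cDC1 below cDC2 (8.89%, against 34.2% of all genes in M and 32.7% in L). Scaling each library by median of ratios brought the medians of all genes to -0.03 in M and -0.04 in L, a shift of over 0.1. The members then numbered 21 higher and 0 lower in M and 22 higher and 2 lower in L. Over all 12434 genes, that scaling gave 2176 higher and 2269 lower in M, in place of 1573 and 3163. In L it gave 2252 higher and 2371 lower, in place of 1605 and 3308. The higher calls thus rose over all genes too. Without L-cDC2 replicate 2, 8 members were higher in L.

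Markers of dividing cells also differed between cDC1 and cDC2. They (Mki67, Top2a, Ccnb1, Cdk1 and Birc5) summed to 38.2 to 43.9 FPKM in L-cDC1 against 83.4 to 97.3 in L-cDC2, and to 43.0 to 53.1 in M-cDC1 against 55.0 to 82.4 in M-cDC2. Erythroid and platelet markers (Hba-a1, Hba-a2, Hbb-bs, Hbb-bt and Pf4) summed to 29.6 to 47.8 FPKM in L-cDC1 against 0 to 1.85 in L-cDC2, and to 21.5 to 24.0 in M-cDC1 against 0.427 to 5.94 in M-cDC2. The dividing-cell sum was thus lower and each globin gene higher in every cDC1 library than in the cDC2 libraries of the same letter. The platelet gene Pf4 was at 0 in all cDC1 libraries. Of the single dividing-cell markers, Cdk1 overlapped in both L and M, and Mki67 and Ccnb1 overlapped in M. The mean of Cdk1 was 8.5 FPKM in M-cDC1 against 7.99 in M-cDC2. Among monocyte and macrophage markers, the cDC2 libraries had more Csf1r (1.04 to 1.56 FPKM in L-cDC1 against 20.9 to 27.4 in L-cDC2, and 2.02 to 2.95 in M-cDC1 against 64.0 to 67.8 in M-cDC2). They also had more Adgre1 (1.22 to 2.28 FPKM in L-cDC1 against 90.3 to 101.9 in L-cDC2, and 1.31 to 2.9 in M-cDC1 against 103.7 to 134 in M-cDC2). Other markers of that list did not all go this way. Ly6c2 was higher in M-cDC1 than in M-cDC2 (log2 difference 0.75, limma adjusted p = 0.0272) and did not pass in L (-0.43). Lyz2 was lower in M-cDC1 than in M-cDC2 (-1.08, limma adjusted p = 0.000297). In L its difference was positive and did not pass (0.41, limma adjusted p = 0.089). The plasmacytoid dendritic cell markers Siglech, Bst2, Tcf4 and Ccr9 summed to 48.2 to 57.4 FPKM in L-cDC1 against 37.6 to 47.7 in L-cDC2, and to 60.7 to 71.8 in M-cDC1 against 40.4 to 44.6 in M-cDC2, again without overlap. These sums were mostly Bst2, which overlapped in L (42.6 to 51.0 FPKM in L-cDC1 against 34.4 to 44.3 in L-cDC2). Bst2 and Ccr9 had higher means in cDC1, whereas Siglech and Tcf4 ran the other way in both L and M. Tcf4 had 0.701 to 1.23 FPKM in L-cDC1 against 2.41 to 3.49 in L-cDC2, and 0.689 to 0.867 in M-cDC1 against 2.47 to 2.61 in M-cDC2. The part of these genes' cells in the proteasome differences was not tested.

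**Figure D2:**
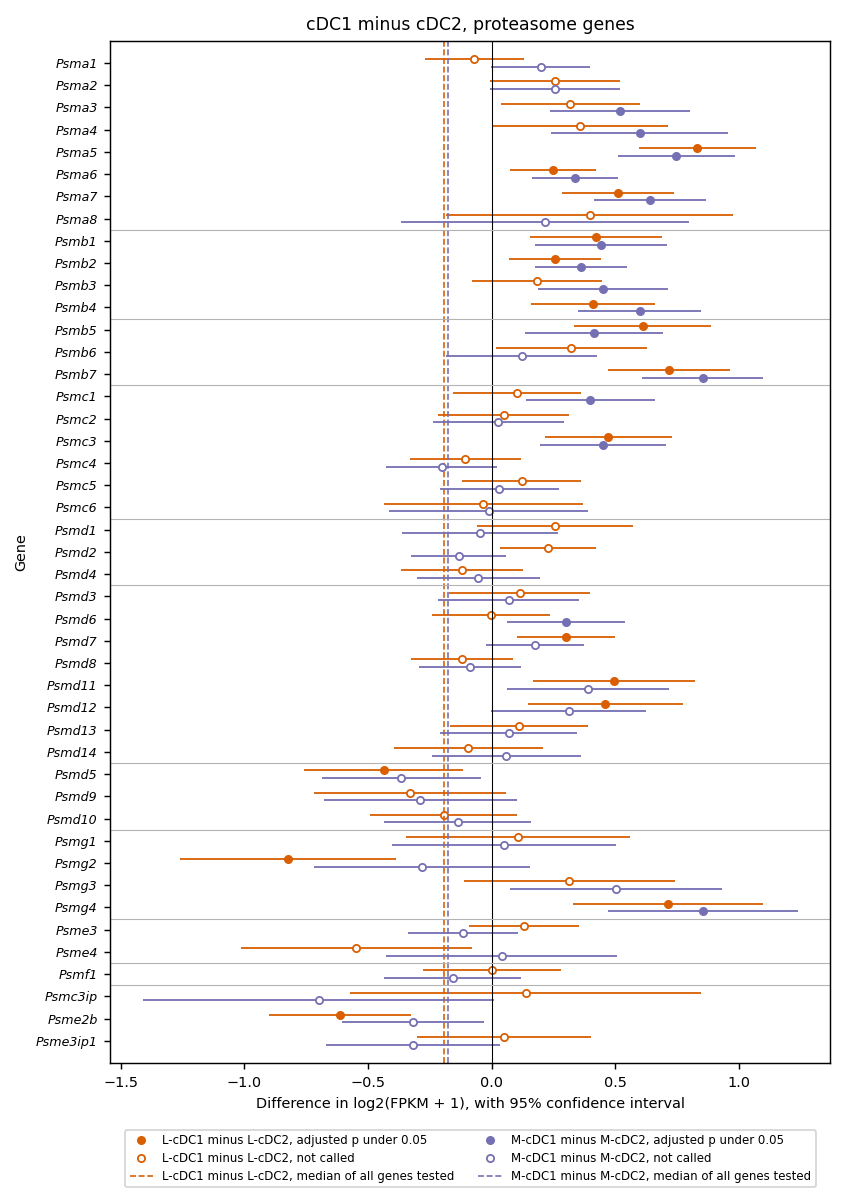
Difference in log2(FPKM + 1) between cDC1 and cDC2 for each tested gene, within L (orange) and within M (purple), with 95% confidence intervals from limma. Filled points passed an adjusted p under 0.05 and dashed lines mark the median of all genes tested; alpha and beta ring genes lie to the right of both medians, and Psmg2 and Psme2b are the lowest points in L.

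In the alpha rings, which form the gate of the barrel, 5 of 8 genes were higher in M-cDC1 than in M-cDC2 and 3 of 8 were higher in L-cDC1 than in L-cDC2. Psma5 had the clearest difference. It lies on chromosome 3 from 108164242 to 108187290 in the deposited table, whose build is not given in the sources used here. Its levels were 148, 147 and 159 FPKM in L-cDC1 and 167, 193 and 190 in M-cDC1, against 72.3, 83.9 and 99.3 in L-cDC2 and 107, 108 and 111 in M-cDC2. Every cDC1 library stood above every cDC2 library. The log2 difference was 0.83 in L (SE 0.11, limma adjusted p = 3.9e-05) and 0.75 in M (SE 0.11, limma adjusted p = 0.000104).

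Psma7, at chromosome 2 from 179678167 to 179684226, had 113, 112 and 141 FPKM in L-cDC1 and 133, 159 and 135 in M-cDC1, against 85.4, 82.1 and 87.0 in L-cDC2 and 90.2, 89.9 and 91.9 in M-cDC2. Again no cDC1 library overlapped a cDC2 library. The log2 difference was 0.51 in L (SE 0.10, limma adjusted p = 0.00162) and 0.64 in M (limma adjusted p = 0.000285). Psma6 differed by 0.25 in L (limma adjusted p = 0.0257) and 0.34 in M (limma adjusted p = 0.00472). Its call in L was lost when L-cDC1 replicate 1, L-cDC2 replicate 1 or L-cDC2 replicate 2 was left out. Its call in M was lost under quantile normalization. Psma3 (0.52) and Psma4 (0.60) were higher in M-cDC1, the call of Psma4 being lost without M-cDC1 replicate 2 or M-cDC2 replicate 1, with 0.32 and 0.36 in L, where they passed no test.

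Of the 4 structural beta subunits, Psmb1 to Psmb4, all 4 were higher in M-cDC1 than in M-cDC2, and Psmb1, Psmb2 and Psmb4 were higher in L-cDC1 than in L-cDC2. Psmb4 had 65.8, 57.5 and 58.1 FPKM in L-cDC1 and 66.2, 77.1 and 78.2 in M-cDC1, against 39.3, 49.2 and 47.5 in L-cDC2 and 48.6, 44.2 and 52.5 in M-cDC2. No cDC1 library fell within the cDC2 range. Its log2 difference was 0.41 in L (SE 0.12, limma adjusted p = 0.0124) and 0.60 in M (SE 0.12, limma adjusted p = 0.00108). Psmb2, with the levels given above, differed by 0.26 in L (limma adjusted p = 0.0305) and 0.36 in M (limma adjusted p = 0.0047). Leaving out L-cDC1 replicate 1, L-cDC1 replicate 2 or L-cDC2 replicate 2 ended its call in L, and quantile normalization ended it in both. The call of Psmb4 in L was lost without L-cDC1 replicate 1 or L-cDC2 replicate 1. That of Psmb1 was lost in L without L-cDC2 replicate 1 or L-cDC2 replicate 2, and in M without M-cDC1 replicate 2 or M-cDC2 replicate 1.

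Among the standard catalytic subunits, Psmb5 and Psmb7 were higher in cDC1 in both L and M, and Psmb6 passed in neither. Psmb5, the chymotrypsin-like subunit and the main target of proteasome inhibitor drugs, had 144, 156 and 155 FPKM in L-cDC1 and 151, 217 and 180 in M-cDC1, against 103, 92.8 and 101 in L-cDC2 and 119, 156 and 134 in M-cDC2. The L groups were apart, while the M groups overlapped through M-cDC1 replicate 1 and M-cDC2 replicate 2. The log2 difference was 0.61 in L (SE 0.13, limma adjusted p = 0.00197) and 0.41 in M (SE 0.13, limma adjusted p = 0.0219). The call in M was lost without M-cDC1 replicate 2, M-cDC2 replicate 1 or M-cDC2 replicate 3, with no filter on low values and under quantile normalization, where the limma adjusted p reached at most 0.104.

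Psmb6, the caspase-like subunit, had 127, 143 and 154 FPKM in L-cDC1 and 148, 182 and 159 in M-cDC1, against 113, 107 and 118 in L-cDC2 and 126, 192 and 137 in M-cDC2. M-cDC2 replicate 2 held the highest value of all 12 libraries. The log2 difference was 0.32 in L (95% interval 0.02 to 0.63, limma adjusted p = 0.0885) and 0.12 in M (-0.19 to 0.43, limma adjusted p = 0.546). In L it passed under median-of-ratios scaling (0.52, limma adjusted p = 0.014), with limma-voom (0.52, adjusted p = 0.0095) and without M-cDC2 replicate 2 (0.32, limma adjusted p = 0.0249). The sign in M turned under quantile normalization (-0.02) and without M-cDC2 replicate 1 (-0.0013).

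Psmb7, the trypsin-like subunit, had 16.2, 17.9 and 15.5 FPKM in L-cDC1 and 20.5, 23.3 and 20.4 in M-cDC1, against 9.43, 9.75 and 9.70 in L-cDC2 and 10.5, 11.5 and 12.1 in M-cDC2. Its cDC1 and cDC2 libraries did not overlap. The log2 difference was 0.72 in L (SE 0.11, limma adjusted p = 0.000202) and 0.85 in M (SE 0.11, limma adjusted p = 4.51e-05). These values are uncertain because Psmb7 lies on the minus strand of chromosome 2 (38478048 to 38534099) and overlaps Nek6, a kinase gene on the other strand. The library kit does not mark strand. Nek6 averaged 27.8 FPKM in the L-cDC1 libraries and 26.7 in the M-cDC1 ones, against 3.65 in L-cDC2 and 2.95 in M-cDC2, so it moved in the same direction. By GENCODE M21 (mouse build GRCm38), 405 of 3421 exonic bases of Psmb7 (11.8%) are shared with Nek6. The part of Nek6 reads in the Psmb7 difference was not tested.

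The immune counterparts were set beside them. Psmb8 had 285, 296 and 300 FPKM in L-cDC1 and 292, 344 and 329 in M-cDC1, against 156, 141 and 156 in L-cDC2 and 184, 171 and 186 in M-cDC2. Per unit of gene length, the ratio of Psmb8 to Psmb5 was 1.90 to 1.98 in L-cDC1 and 1.58 to 1.93 in M-cDC1, against 1.52 to 1.55 in L-cDC2 and 1.1 to 1.54 in M-cDC2. The ratio of Psmb9 to Psmb6 was 1.86 to 2.09 in L-cDC1 and 1.69 to 1.79 in M-cDC1, against 1.03 to 1.18 in L-cDC2 and 0.675 to 0.974 in M-cDC2. For both pairs the cDC1 ratios lay above the cDC2 ratios in every library. The ratio of Psmb10 to Psmb7 ran the other way, at 4.45 to 5.82 in L-cDC1 and 3.75 to 4.71 in M-cDC1, against 9.10 to 10.6 in L-cDC2 and 8.01 to 10.2 in M-cDC2. Psmb10 itself passed in neither comparison, with log2 differences of -0.19 in L (limma adjusted p = 0.156) and -0.17 in M (limma adjusted p = 0.198). The last ratio carries the doubt about Psmb7.

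**Figure D3:**
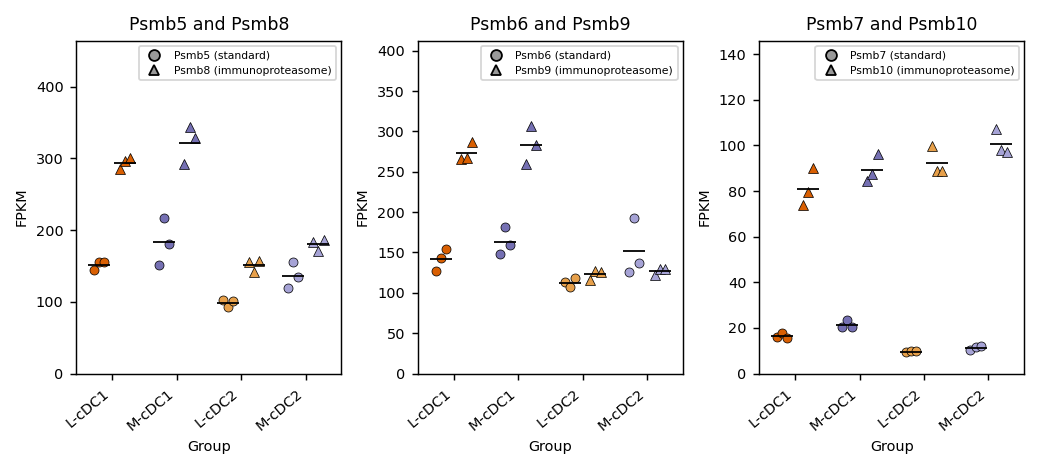
FPKM of the 3 standard catalytic genes (circles) and of the immunoproteasome gene that can take each one's place (triangles) in the 12 libraries, with a bar at each group's mean. Psmb8 and Psmb9 stand at 259 FPKM or more in every cDC1 library and at 186 or less in every cDC2 library, Psmb5 and Psmb7 are lower in cDC2, and Psmb10 spans 73.7 to 107 FPKM over the 12 libraries.

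Of the 17 genes of the regulatory particle, 3 were higher in M-cDC1 than in M-cDC2 (17.6%) and 4 higher in L-cDC1 than in L-cDC2 (23.5%), with 0 lower. Their median log2 differences were 0.06 in M and 0.11 in L, beside 0.44 and 0.36 for the 15 tested core genes. Among the base ATPases, Psmc3 was higher in both. It had 87.4, 101 and 102 FPKM in L-cDC1 and 102, 98.0 and 101 in M-cDC1, against 81.7, 58.7 and 69.5 in L-cDC2 and 79.3, 68.0 and 73.0 in M-cDC2. The groups did not overlap, and the log2 difference was 0.47 in L (SE 0.12, limma adjusted p = 0.00608) and 0.45 in M (SE 0.12, limma adjusted p = 0.00854). Psmc3 shares 215 of 2607 exonic bases with Slc39a13 on the other strand, which averaged 4.93 to 5.0 FPKM in the cDC1 groups against 4.89 to 5.62 in the cDC2 groups.

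Psmc1, another ATPase, was higher in M-cDC1 (0.40, limma adjusted p = 0.0188), a call lost without M-cDC1 replicate 1 or M-cDC2 replicate 2, and had a difference of 0.10 in L. In the lid, the difference of Psmd7 was 0.30, of Psmd11 0.50 and of Psmd12 0.46 in L, where each was higher in L-cDC1. The calls of Psmd7 and Psmd11 held in 17 of 19 alternatives each and that of Psmd12 in 15, with the losses of Psmd7 falling without L-cDC1 replicate 2 or L-cDC2 replicate 1, and those of Psmd11 without L-cDC1 replicate 3 or L-cDC2 replicate 2. Those of Psmd12 fell without L-cDC1 replicate 1, L-cDC1 replicate 2 or L-cDC2 replicate 2, and with no filter on low values. In M they had differences of 0.18, 0.39 and 0.31 and passed no test. Psmd6 was higher in M-cDC1 (0.30, limma adjusted p = 0.0457) and lost that call in 11 of 19 alternatives. Psmd14, the enzyme that cuts ubiquitin off the substrate, had differences of -0.09 in L and 0.06 in M, and Psmd4, a ubiquitin receptor, -0.12 in L and -0.05 in M. None of the 3 other subunits of the base, Psmd1, Psmd2 and Psmd4, passed a test.

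Core assembly needs the Psmg chaperones, and these did not move together. Psmg4 had 63.0, 46.5 and 49.98 FPKM in L-cDC1 and 68.5, 77.7 and 52.0 in M-cDC1, against 25.7, 32.8 and 38.0 in L-cDC2 and 40.8, 30.7 and 36.1 in M-cDC2. Its groups did not overlap, and it was higher by 0.71 in L (SE 0.18, limma adjusted p = 0.00603) and 0.85 in M (SE 0.18, limma adjusted p = 0.00186). Psmg2 had 22.8, 14.7 and 12.7 FPKM in L-cDC1 and 22.0, 25.5 and 17.9 in M-cDC1, against 29.6, 34.9 and 24.8 in L-cDC2 and 26.1, 23.2 and 30.7 in M-cDC2. It was lower in L-cDC1 (log2 difference -0.82, SE 0.20, limma adjusted p = 0.00543), while in M the groups overlapped (-0.28, limma adjusted p = 0.301). Psmg1 and Psmg3 passed in neither.

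The 3 chaperones of the base, Psmd5, Psmd9 and Psmd10, had negative differences, from -0.44 to -0.19 in L and from -0.36 to -0.14 in M. The medians of all genes tested were negative too, at -0.19 in L and -0.18 in M, so the sign is not particular to them. Psmd5 was lower in L-cDC1, with 12.8, 10.1 and 14.5 FPKM in L-cDC1 and 12.01, 14.0 and 11.5 in M-cDC1, against 14.6, 19.1 and 17.9 in L-cDC2 and 15.8, 15.5 and 17.7 in M-cDC2. The L-cDC1 and L-cDC2 values did not overlap but nearly met. Its log2 difference was -0.44 in L (SE 0.15, limma adjusted p = 0.032) and -0.36 in M (limma adjusted p = 0.0691). The call in L did not survive 8 of 19 alternatives, among them median-of-ratios scaling (-0.25), quantile normalization (-0.26) and limma-voom (-0.27).

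Alternative activators and the inhibitor showed no called difference between cDC1 and cDC2. Psme3, the nuclear activator that opens the barrel without ATP, had 76.5, 74.3 and 70.1 FPKM in L-cDC1 and 64.8, 52.6 and 64.2 in M-cDC1, against 70.4, 64.0 and 67.0 in L-cDC2 and 66.1, 60.7 and 69.9 in M-cDC2. Psme4 had 2.73, 1.95 and 2.57 FPKM in L-cDC1 and 2.47, 2.48 and 4.35 in M-cDC1, against 3.04, 4.14 and 4.89 in L-cDC2 and 3.4, 2.39 and 2.97 in M-cDC2. Its L-cDC1 libraries lay below its L-cDC2 libraries (-0.55, limma adjusted p = 0.0602). The proteasome inhibitor protein gene Psmf1 had 9.93, 10.7 and 10.5 FPKM in L-cDC1 and 7.68, 10.4 and 8.84 in M-cDC1, against 10.2, 10.6 and 10.3 in L-cDC2 and 10.8, 10.03 and 9.35 in M-cDC2, and the 4 groups overlapped.

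Psme2b, which is a close copy of the activator gene Psme2, was lower in L-cDC1 than in L-cDC2 (-0.61, SE 0.13, limma adjusted p = 0.00238). It had 56.0, 52.7 and 65.5 FPKM in L-cDC1 and 68.0, 56.7 and 70.4 in M-cDC1, against 105, 81.0 and 82.7 in L-cDC2 and 91.0, 73.1 and 80.2 in M-cDC2. Psme2 itself was higher in L-cDC1 (0.62, limma adjusted p = 2.91e-05). Reads that both copies could have given were assigned by the authors' counting, so the level of Psme2b is uncertain. By GENCODE M21, Psme2b also shares 41 of 837 exonic bases with 9930111J21Rik1 on the same strand. That gene averaged 13.2 FPKM in L-cDC1 against 35.7 in L-cDC2, and 12.4 in M-cDC1 against 29.0 in M-cDC2. The part of its reads in the Psme2b difference was not tested. Psmc3ip and Psme3ip1 passed in neither comparison.

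The sums by particle show how the core and the cap compared. The 15 core genes that were detected summed to 1445 to 1456 FPKM in L-cDC1, 1590 to 1816 in M-cDC1, 1082 to 1181 in L-cDC2 and 1198 to 1296 in M-cDC2, with no overlap between any of the groups. The 17 regulatory particle genes summed to 896 to 930 FPKM in L-cDC1, 928 to 944 in M-cDC1, 817 to 860 in L-cDC2 and 858 to 896 in M-cDC2. The ratio of the core sum to the regulatory sum was 1.55 to 1.62 in L-cDC1 and 1.69 to 1.94 in M-cDC1, against 1.28 to 1.37 in L-cDC2 and 1.40 to 1.45 in M-cDC2. The ratios ordered the groups as M-cDC1, L-cDC1, M-cDC2 and L-cDC2, from high to low, without overlap. These sums and ratios are descriptions with no test, and they weigh the abundant genes most.

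**Figure D4:**
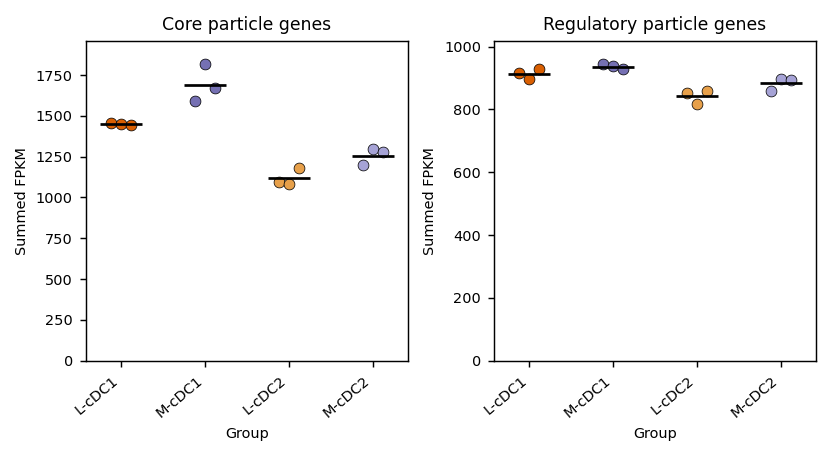
Summed FPKM of the core particle genes (left) and of the regulatory particle genes (right) in the 12 libraries, with a bar at each group's mean. The core sums of the 4 groups do not overlap, with the highest library at 1816 FPKM in M-cDC1 and the lowest at 1082 in L-cDC2, whereas the regulatory sums run from 817 to 944.

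Between L and M, 0 of the 45 genes passed in either subset. L-cDC1 against M-cDC1 called 0.394% of all genes, and L-cDC2 against M-cDC2 called 1.83%. At an unadjusted p under 0.05 there were 7 members in cDC1 and 7 in cDC2. The share of all genes at that unadjusted threshold was not counted, so these numbers have no background to be set against. The limma-voom fit on the recovered reads also called 0 members in both. The core particle genes leaned one way. In L-cDC1 against M-cDC1 all 15 had negative differences, from -0.36 to -0.06 with a median of -0.22, also under median-of-ratios scaling, quantile normalization and limma-voom. In L-cDC2 against M-cDC2, 12 of the 15 were negative, with a median of -0.15. Over all genes tested the medians were 0.02 and 0.03. The 17 regulatory genes had medians of -0.04 and -0.07.

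The L and M libraries of a gene were counted as apart when their values did not overlap. In cDC1, 8 members were apart with L below M (17.8%, against 5.63% of all genes), Psma1, Psma5, Psma6, Psmb2, Psmb3, Psmb4, Psmb7 and Psmd6, and 1 with L above M, Psme3 (2.22%, against 8.28%). In cDC2, 10 were apart with L below M (22.2%, against 6.92%) and 0 with L above M (9.96% of all genes). Psma5, Psma6 and Psmb7 were apart in both. These lists were read after the values were seen.

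The smallest p in cDC1 was that of Psma6. It had 136, 124 and 127 FPKM in L-cDC1, compared with 159, 160 and 160 in M-cDC1, and 110, 103 and 113 in L-cDC2 against 121, 127 and 131 in M-cDC2. All L values lay below their M values, but the log2 difference in cDC1, -0.31 (SE 0.08, limma adjusted p = 0.147), did not pass, nor did -0.22 in cDC2 (limma adjusted p = 0.308). Psmb7 differed by -0.36 in cDC1 (limma adjusted p = 0.259) and -0.22 in cDC2 (limma adjusted p = 0.566), and Psma5 by -0.27 (limma adjusted p = 0.399) and -0.36 (limma adjusted p = 0.166). Psma5 passed in cDC2 when L-cDC2 replicate 3 was left out (limma adjusted p = 0.0477), the one alternative in which any member was called between L and M. The smallest p in cDC2 was that of Psmb5, at -0.45 (95% interval -0.73 to -0.17, limma adjusted p = 0.126), beside -0.26 in cDC1. Psmb6 differed by -0.40 in cDC2 (limma adjusted p = 0.271). Psme3 ran the other way in cDC1, at 0.28 (limma adjusted p = 0.353).

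The sums of the B cell markers moved with the L label, as given above, and were highest in L-cDC2 replicate 2. Without that library the L-cDC2 core sums were 1092 and 1181 FPKM, beside 1198 to 1296 in M-cDC2, and the L-cDC2 libraries that remain also held B cell markers, at 377 FPKM or more. T and NK cell markers summed to 9.33 to 15.9 FPKM in L-cDC1 against 0.137 to 0.326 in M-cDC1, and to 25.8 to 65.8 in L-cDC2 against 0.695 to 1.03 in M-cDC2. Plasma cell markers summed to 5.17 to 13.3 FPKM in L-cDC1 against 0.374 to 1.65 in M-cDC1, and to 5.96 to 24.1 in L-cDC2 against 0.533 to 0.808 in M-cDC2. The sums of these lists were higher in every L library than in the M libraries of the same subset. Those of B cells in L were mostly Igkc, and those of plasma cells mostly Jchain. Ms4a1 overlapped in cDC1 (8.03 to 10.9 FPKM in L against 6.01 to 9.31 in M), and Derl3 in both subsets. Tnfrsf17 was at 0 in all libraries, and Sdc1 was at 0 in L-cDC1 but reached 0.118 FPKM in M-cDC1. The monocyte and macrophage markers Lyz2 and Csf1r were lower in L than in M. Lyz2 had 318 to 329 FPKM in L-cDC1 against 418 to 474 in M-cDC1, and 182 to 351 in L-cDC2 against 804 to 1021 in M-cDC2, a log2 difference of -1.93 in cDC2 (limma adjusted p = 5e-05). Csf1r, at the levels given above, differed by -1.41 in cDC2 (limma adjusted p = 0.000106), and neither passed in cDC1. Adgre1 (-0.32 in cDC2) and Ly6c2 (0.58 in cDC2) passed in neither. The erythroid and platelet sums given above were higher in L-cDC1 than in M-cDC1 without overlap, and the plasmacytoid sums, mostly Bst2, lower. The part of these cells in the L and M values was not tested. The 95% intervals of the single differences reached from -0.83 to 0.72 in cDC1 and from -1.54 to 0.82 in cDC2. Without the genes matched by symbol only, those of the 42 others reached from -0.83 to 0.52 in cDC1 and from -0.83 to 0.82 in cDC2. The lack of calls thus does not show equal levels.

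**Figure D5:**
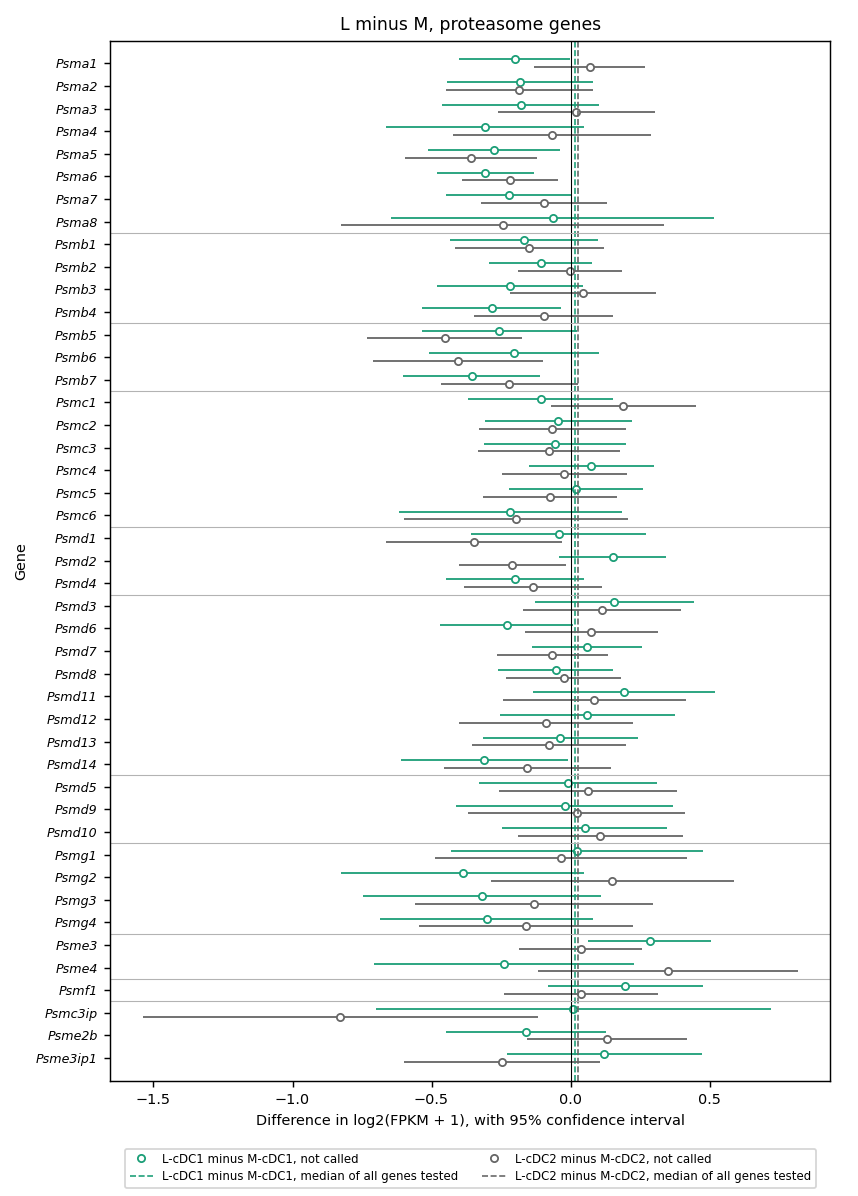
Difference in log2(FPKM + 1) between L and M for each tested gene, within cDC1 (green) and within cDC2 (grey), with 95% confidence intervals from limma and dashed lines at the median of all genes tested. All points are open because 0 genes passed, and the 15 core particle genes in the top 3 blocks lie left of 0 in cDC1.

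The test of whether the L and M difference itself differed between cDC1 and cDC2 called 0 of the 45 genes, where it called 0.298% of all genes. Psmd2, a scaffold subunit of the base, was the 1 member with an unadjusted p under 0.05, a threshold at which all genes were not counted. It had 93.6, 89.0 and 99.9 FPKM in L-cDC1, compared with 79.3, 82.4 and 92.5 in M-cDC1, and 79.6, 79.5 and 81.3 in L-cDC2 against 88.9, 96.9 and 93.0 in M-cDC2. L lay below M in cDC2 without overlap, while the cDC1 libraries overlapped with a higher mean in L. The difference of differences was 0.36 (SE 0.13, limma adjusted p = 0.411). It was -0.27 for Psma1, -0.31 for Psmd6 and -0.59 for Psme4, and these did not pass.

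Genes that build, regulate or feed the proteasome were taken from a list of 32, of which 31 were tested. In M-cDC1 against M-cDC2 6 were higher (19.4%, against 12.7% of all genes) and 9 lower (29.0%, against 25.4%). In L-cDC1 against L-cDC2 3 were higher (9.68%, against 12.9%) and 5 lower (16.1%, against 26.6%), so the shares that were lower are near or under those of all genes. Pomp, the chaperone that completes the core particle, had 89.1, 94.4 and 94.2 FPKM in L-cDC1 and 106, 124 and 106 in M-cDC1, against 48.8, 42.7 and 46.7 in L-cDC2 and 50.1, 53.5 and 53.0 in M-cDC2. It was higher by 0.99 in L (SE 0.09, limma adjusted p = 1.63e-06) and 1.09 in M (limma adjusted p = 6.67e-07). Sem1, a small lid subunit, was higher by 0.45 in L and 0.52 in M, and Vcp, the unfoldase that hands ubiquitinated proteins to the proteasome, by 0.45 in L and 0.44 in M.

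Ddi2, the protease of Nfe2l1, had 6.12, 5.62 and 4.99 FPKM in L-cDC1 and 5.68, 5.81 and 5.89 in M-cDC1, against 17.9, 15.1 and 15.4 in L-cDC2 and 14.3, 18.3 and 13.8 in M-cDC2. The log2 difference was -1.38 in L (SE 0.14, limma adjusted p = 2.86e-06) and -1.27 in M (limma adjusted p = 6.8e-06). Both calls of Ddi2 held in all 19 alternatives. Ngly1, which removes the sugars of Nfe2l1, differed by -0.46 in L (limma adjusted p = 0.0137) and -0.36 in M (limma adjusted p = 0.0484), calls that held in 14 of 19 alternatives in L and in 5 in M and were lost in both under median-of-ratios scaling, quantile normalization and limma-voom. Zfand5, an activator of the proteasome, Akirin2, which brings proteasomes into the nucleus, and Tpp2, a peptidase that acts after the proteasome, were also lower in cDC1 in both L and M. The call of Tpp2 held in 8 of 19 alternatives in L and in 10 in M, and that of Akirin2 in 11 in L and in 19 in M, and those that did not hold throughout were lost under the same 3 scalings and tests. Nfe2l1 itself passed in neither, with differences of 0.11 in L and -0.30 in M. In M, Nfe2l2, Nploc4, Faf1 and Ubqln1 were lower as well, and Ubb, Rps27a and Txnl1 higher. Of these, the calls of Nploc4 and Rps27a held in 11 of 19 alternatives each that of Txnl1 in 14 and that of Ubb in 18. Between L and M, 0 of the 31 passed in either subset.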

How the data were processed

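RNA of 12 samples was isolated with an RNeasy micro kit and made into libraries with SMART-Seq HT and Nextera XT kits, per the labels' protocols; these kits do not mark strand. The authors deposited 1 table of FPKM values per gene for all 12 libraries. The submitters' processing notes list, without roles, STAR 2.7.9a, featureCounts 2.0.1, DESeq2 1.20.0, cutadapt 3.7, Trimmomatic 0.39 and Trim Galore 0.6.7, and the human build GRCh38, although the symbols are of mouse genes. The build of the table's coordinates is not given in the sources used here. FPKM multiplied by gene length gave whole reads, within 0.01 read, for 100% of values above 0, and their totals are the depths given. The floor of 3 reads covers counting error only, and the 95% intervals are limma's, from the spread between libraries.

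The 12434 genes that reached 1 FPKM in 3 or more libraries were tested on log2(FPKM + 1), a scale that understates the change of low genes. In R 4.3.3, limma 3.58.1 fitted 1 mean for each group to the 12 libraries together, with its intensity trend, which leaves 8 residual degrees of freedom. Adjusted p-values are Benjamini-Hochberg values, taken over all genes tested in a contrast. With 3 libraries a side, an exact two-sided permutation test has a smallest p of 0.1. The fit was tested on simulated data.

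Members with values in every library were the up to 6 called genes in each direction with the smallest p whose groups did not overlap, the catalytic genes, Psme3, Psme4 and Psmf1, the 3 highest and 3 lowest genes, and the 4 with the smallest interaction p. The members, gene lists and tests were chosen with earlier results of these data known. Promoters came from RefSeq. 1 gene of the monocyte and macrophage marker list, and the list's sum, are not reported here. Alternatives were another pseudocount (0.1), a filter at 5 FPKM and none, median-of-ratios scaling, quantile normalization, limma-voom on the recovered reads, a replicate block and each library left out.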

Additional observations from a re-analysis of the deposited data

Results flagged for a closer look

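Psma5-ps and Psmb6-ps, pseudogene rows that the comparisons leave out because they are not protein-coding, held more reads than a count of 0 allows. Psma5-ps reached 0.705 FPKM in M-cDC1 replicate 2 and had 3 to 13 reads in each of the 12 libraries, beside 72.3 to 193 FPKM for Psma5 itself. Psmb6-ps reached 0.4996 FPKM in M-cDC1 replicate 1, with 8 reads at most, and was above 0 in 3 libraries. Whether these reads come from the parent genes was not tested.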

How the results depend on the processing

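Member counts between L and M were 0 under the alternatives run, except for 1 gene lower in L-cDC2 than in M-cDC2 without L-cDC2 replicate 3, a range of 0 to 1 over left-out libraries. In M-cDC1 against M-cDC2, 12 to 15 were higher and 0 to 1 lower over left-out libraries, and in L-cDC1 against L-cDC2, 8 to 15 were higher and 2 to 4 lower. With median-of-ratios scaling 22 members were higher in L-cDC1 than in L-cDC2, and with limma-voom 21; the cause was not tested. The Psmb6 difference in M turned to -0.0198 under quantile normalization and ranged from -0.00128 to 0.303 over left-out libraries. Among the values of named members under alternatives, 873 kept direction and side of the threshold, 51 lost their call, 4 gained one and 2 reversed.

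The libraries were not treated as paired, since deviations of same-numbered libraries correlated at -0.01 to 0.16, over 0.1 in 3 of 18 pairs. The labels do not say whether a number marks a shared animal or day, and shared sets remain possible, as 11 of 12 libraries correlated best with one of their own number. With the replicate number as a block, 14 members were higher and 2 lower in M-cDC1 than in M-cDC2, and 13 higher and 4 lower in L-cDC1 than in L-cDC2, with 0 between L and M.

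Over all genes, calls higher in L-cDC1 than in M-cDC1 (44) became 11 with no filter, 70 with a pseudocount of 0.1, 73 with a filter at 5 FPKM and 22 to 97 over left-out libraries, and calls lower (5) 2 to 10. Calls higher in L-cDC2 than in M-cDC2 (129) became 64 with the filter at 5 FPKM and 76 to 135 over left-out libraries, and calls lower (98) 50 to 96. Calls lower in cDC1 than in cDC2 fell to 1967 (M) and 2098 (L) under quantile normalization, with 2253 and 2330 higher, against 3163 and 3308 lower and 1573 and 1605 higher. Median-of-ratios scaling gave 2269 and 2371 lower with 2176 and 2252 higher. Interaction calls (24 higher, 13 lower) ranged from 6 to 29 and 3 to 14 over left-out libraries. At 3 libraries a group, a member's 95% interval had a median size of ±0.28 on the log2 scale.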

Other observations

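Of the 46 genes, 9 have a span that overlaps a protein-coding gene on the opposite strand in the deposited table, Psma4, Psmb7, Psmc3, Psmc3ip, Psmd1, Psmd5, Psmd9, Psmd13 and Psme3ip1, and with these kits reads from the 2 strands cannot be told apart. In GENCODE M21 the shared part is 21.2% of the exonic bases of Psmc3ip, with Mlx, 10.1% of those of Psmd13, with Sirt3, and 0 for Psmd5 and Psmd9. Psmc3ip stood at 14.5 FPKM in M-cDC2 replicate 2 and at 2.72 to 6.53 in the other libraries. Across the 45 tested genes, Spearman's rho between mean FPKM and the table's gene length was -0.45, a description over genes that share the same libraries.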
